A study of Homo sapiens with 25 samples.

Results

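The acetylated histone mark H3K27ac covered 343 regions of at least 3 kb in definitive endoderm (hDE) derived from human embryonic stem cells. These broad domains were found by merging overlapping H3K27ac peaks of hDE replicate 1, keeping merged intervals of 3 kb or more on chromosomes 1 to 22 and X, and requiring peaks of hDE replicate 2 on at least 50% of their bases. They were 343 of 100924 merged intervals, or 0.340%, and held 3.06% of the bases under peaks in that library (1.35 of 43.9 Mb). Widths ran from 3000 to 8778 bp with a median of 3587 bp, against a median of 416 bp for all 55702 intervals that met the 50% condition (called replicated intervals here). Every merged interval of 3 kb or more met that condition, with a lowest cover by replicate 2 of 73.6% and a median of 96.6%. Width, cover and H3K27ac in hDE chose the domains, so these values are a description and were not tested.

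The study profiled H3K27ac, H3K27me3 and H3K4me2 by chromatin immunoprecipitation with sequencing (ChIP-seq) in the H1 line, an established human embryonic stem cell line, at 4 stages. They were undifferentiated cells (hESC), the definitive endoderm stage hDE, hAFE, which is endoderm of the anterior foregut, and hPFE, which is endoderm of the pharyngeal foregut, and the labels name no genetic change at any of them. Each mark had 2 libraries at each stage, except that H3K27me3 in hAFE and H3K4me2 in hAFE and hPFE had 1 each. The sources used here do not give the days and agents of the differentiation. The labels call the hESC H3K27ac and H3K27me3 libraries re-analysed, so for those marks batch and stage cannot be told apart in any contrast with hESC. All cells came from 1 line, and nothing in the labels ties replicates to separate cultures, so a p-value measures only the spread between these libraries.

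H3K27ac marks active enhancers and promoters, and long stretches of it are known to lie at genes that define a cell's identity. H3K27me3 is laid down by Polycomb repressive complex 2 on silenced developmental genes, and since both marks modify the same lysine, one histone tail cannot carry both. H3K4me2 lies at promoters and enhancers, including poised ones. Definitive endoderm arises from the primitive streak under Nodal signalling, in which EOMES, GATA and FOXA factors and SOX17 act, and it later gives rise to the gut tube, whose anterior part forms the foregut and the pharynx.

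Promoters are shown for 4 genes whose start lay inside a domain, because their domains had different histories at the other stages. EOMES, a T-box factor of the endoderm, and NODAL, the ligand itself, lay in domains acetylated in hDE alone. CRIPTO, the Nodal co-receptor also named TDGF1, lay in a domain acetylated in hESC and hDE, and TGIF1, a co-repressor of SMAD proteins, in one acetylated at every stage. Sequences are from RefSeq, build GRCh38.p14, and run from 250 bases before to 50 bases after the start, with CpG dinucleotides in capitals. They lie at chr3:27722274-27722573 on the minus strand (EOMES), chr10:70441632-70441931 on the minus strand (NODAL), chr3:46577538-46577837 on the plus strand (CRIPTO) and chr18:3451343-3451642 on the plus strand (TGIF1).
EOMES: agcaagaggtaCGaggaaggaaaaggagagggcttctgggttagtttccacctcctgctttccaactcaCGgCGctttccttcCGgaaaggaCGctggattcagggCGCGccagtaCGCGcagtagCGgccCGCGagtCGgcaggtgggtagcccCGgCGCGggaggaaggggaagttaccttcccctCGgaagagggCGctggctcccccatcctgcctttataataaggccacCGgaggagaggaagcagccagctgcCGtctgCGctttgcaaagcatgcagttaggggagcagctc
NODAL: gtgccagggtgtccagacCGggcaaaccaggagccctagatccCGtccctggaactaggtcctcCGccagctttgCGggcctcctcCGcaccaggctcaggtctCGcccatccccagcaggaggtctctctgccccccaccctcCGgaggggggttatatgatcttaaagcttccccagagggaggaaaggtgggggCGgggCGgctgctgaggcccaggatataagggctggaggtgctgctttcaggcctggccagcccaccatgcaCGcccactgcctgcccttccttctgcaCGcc
CRIPTO: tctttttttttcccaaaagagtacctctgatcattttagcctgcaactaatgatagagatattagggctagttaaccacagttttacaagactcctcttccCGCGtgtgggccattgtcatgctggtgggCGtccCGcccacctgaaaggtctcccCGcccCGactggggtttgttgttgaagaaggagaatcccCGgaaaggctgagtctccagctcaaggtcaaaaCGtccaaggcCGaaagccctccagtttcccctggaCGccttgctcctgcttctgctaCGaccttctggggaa
TGIF1: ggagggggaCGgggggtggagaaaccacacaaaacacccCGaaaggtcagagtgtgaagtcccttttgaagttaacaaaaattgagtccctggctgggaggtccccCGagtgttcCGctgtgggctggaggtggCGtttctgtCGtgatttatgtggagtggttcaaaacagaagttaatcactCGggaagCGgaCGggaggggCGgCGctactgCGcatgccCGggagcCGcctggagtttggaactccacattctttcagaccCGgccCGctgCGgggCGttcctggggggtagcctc

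The EOMES promoter held 21 CpG dinucleotides, that of TGIF1 18, and those of NODAL and CRIPTO 11 each. The 109 promoters in the table whose start lay in a domain had a median of 20, against 14 over all 34961 promoters of that length. On either strand, the FOXA motif TGTTTAC occurred in 10 of the 109 (9.17%) and in 3.42% of all promoters. The GATA motif AGATAA occurred in 4.59% and 10.3%, the T-box motif GGTGTGA in 3.67% and 3.46%, and the OTX and GSC motif TAATCC in 6.42% and 6.34%. The FOXH1 motif TGTGGATT, which shares the letters GGATT with the other strand of the OTX and GSC motif, occurred in 0.917% and 0.807%. None of these letters was found in the 4 windows shown. Matches are a description of letters in windows of 300 bases and were not tested.

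The mature microRNAs of the miR-302 cluster and let-7i-5p are shown for their place in pluripotency, while let-7i-3p and both arms of miR-1915, which also lay inside domains, are not. The LARP7 domain 2 (chr4:112649140-112652408) held the start of MIR302CHG, the host of the miR-302 cluster, which is known for its high level in pluripotent cells. The microRNAs themselves lay 629 to 1242 bp outside that domain. The seed, bases 2 to 8, is in capitals.
miR-302a-3p: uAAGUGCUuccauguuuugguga
miR-302b-3p: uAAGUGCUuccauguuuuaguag
miR-302c-3p: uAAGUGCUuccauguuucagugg
miR-302d-3p: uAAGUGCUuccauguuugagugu
miR-367-3p: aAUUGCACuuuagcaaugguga
let-7i-5p: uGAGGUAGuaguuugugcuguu
The 4 miR-302 members share 1 seed and miR-367-3p has another. let-7i, of a family that LIN28 proteins keep from maturing, lay inside the MON2 domain (chr12:62601761-62605030) at chr12:62603691-62603712.

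Several genes known for their part in the definitive endoderm held the widest domains. The widest domain, 8778 bp, covered FGF17, which encodes a secreted fibroblast growth factor (chr8:22040102-22048879). Next came domains at LRIG3 (7525 bp), VRTN (7434 bp), GATA6 (7376 bp), TCF7L2 (7335 bp) and the noncoding LOC105374189 (7204 bp). FAM184A (7151 bp), CYP26A1, whose enzyme degrades retinoic acid (7009 bp), EOMES (6909 bp) and SKIDA1 (6862 bp) completed the 10 widest. Ranks 11 to 20 were AFF1, OTX2, LHX1, PAN3, FREM1, MAP2K1, GSC, ZNF608, LARP7 and RHOBTB3, between 6840 and 5783 bp. OTX2, LHX1 and GSC encode homeodomain factors of the anterior streak and endoderm. A domain is named by the protein-coding gene whose start it holds or, failing that, the nearest coding start within 5 kb, the gene it lies in or the nearest coding gene, and several domains of 1 gene are numbered by width.

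Of 25 definitive endoderm genes in a list, 6 had their start inside a domain: SOX17, EOMES, LHX1, OTX2, FGF17 and CYP26A1. Over all 19974 protein-coding genes the share was 0.38%. With a distance of up to 100 kb the count was 14 of 25, against 3.14% of all coding genes. The other 8 were FOXA2 at 1.95 kb, GATA4 at 24.9 kb, GATA6 at 0.279 kb, CXCR4 at 59.4 kb, GSC at 0.463 kb, CER1 at 0.027 kb, HHEX at 0.008 kb and KIT at 8.63 kb. Those with none in that window included MIXL1, LEFTY1, LEFTY2, FOXA1, FOXA3, PRDM1, FGF8, FZD8, GPC4 and DKK4. The list was written with earlier results of these data known, so its count describes the domains and is no independent sign of their identity.

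Of 26 genes of Nodal and TGF-beta signalling, NODAL, CRIPTO, FOXH1 (the DNA-binding partner of SMAD2 and SMAD3) and TGIF1 had their start in a domain. That is 15.4% of the list. The share of all coding genes with a start inside, 0.38%, stands against each count of starts here. CER1, a secreted inhibitor of Nodal, and FST, which binds activin, had one within 0.110 kb of their start. Of 15 primitive streak genes 4 (26.7%) held a domain at the start: EOMES, LHX1, FOXH1 and NODAL. TBXT and MIXL1 had none within 100 kb. Of 18 pluripotency genes 3 (16.7%) did, CRIPTO, LIN28B and SALL4, while POU5F1, NANOG and SOX2 had none within 100 kb. The lists share genes, so EOMES, LHX1, NODAL, FOXH1 and CRIPTO are each counted in more than 1 list. Among 30 WNT genes none had a start inside, but TCF7L2, a DNA-binding effector of WNT signalling, the receptor genes FZD5 and FZD7, and APC, whose product acts in the destruction of beta-catenin, lay within 100 kb of one. These 4 are 13.3% of the WNT list, against 3.14% of all coding genes at that distance. FGF17 was the only one of 21 FGF pathway genes with a start inside.

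Lists of markers of other fates held few domains, where 3.14% of all coding genes have one within 100 kb and lists of this length would hold about 1 or none at that share. No gene of the lists for anterior foregut and pharynx (30 genes), liver, pancreas and intestine (18), mesoderm, heart and blood (20) or extraembryonic endoderm and trophoblast (15) had a domain within 100 kb of its start. The neural list had 2 of 18 within 100 kb (11.1%): ZIC2 with its start inside, and NES, which encodes nestin, at 69.96 kb. None of 24 housekeeping genes had a domain within 100 kb, although 12 of them, against 21.3% of all coding genes, had their start in a replicated interval of some width. Lists written with the results in view describe the domains and do not test the hDE label.

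**Figure D1:**
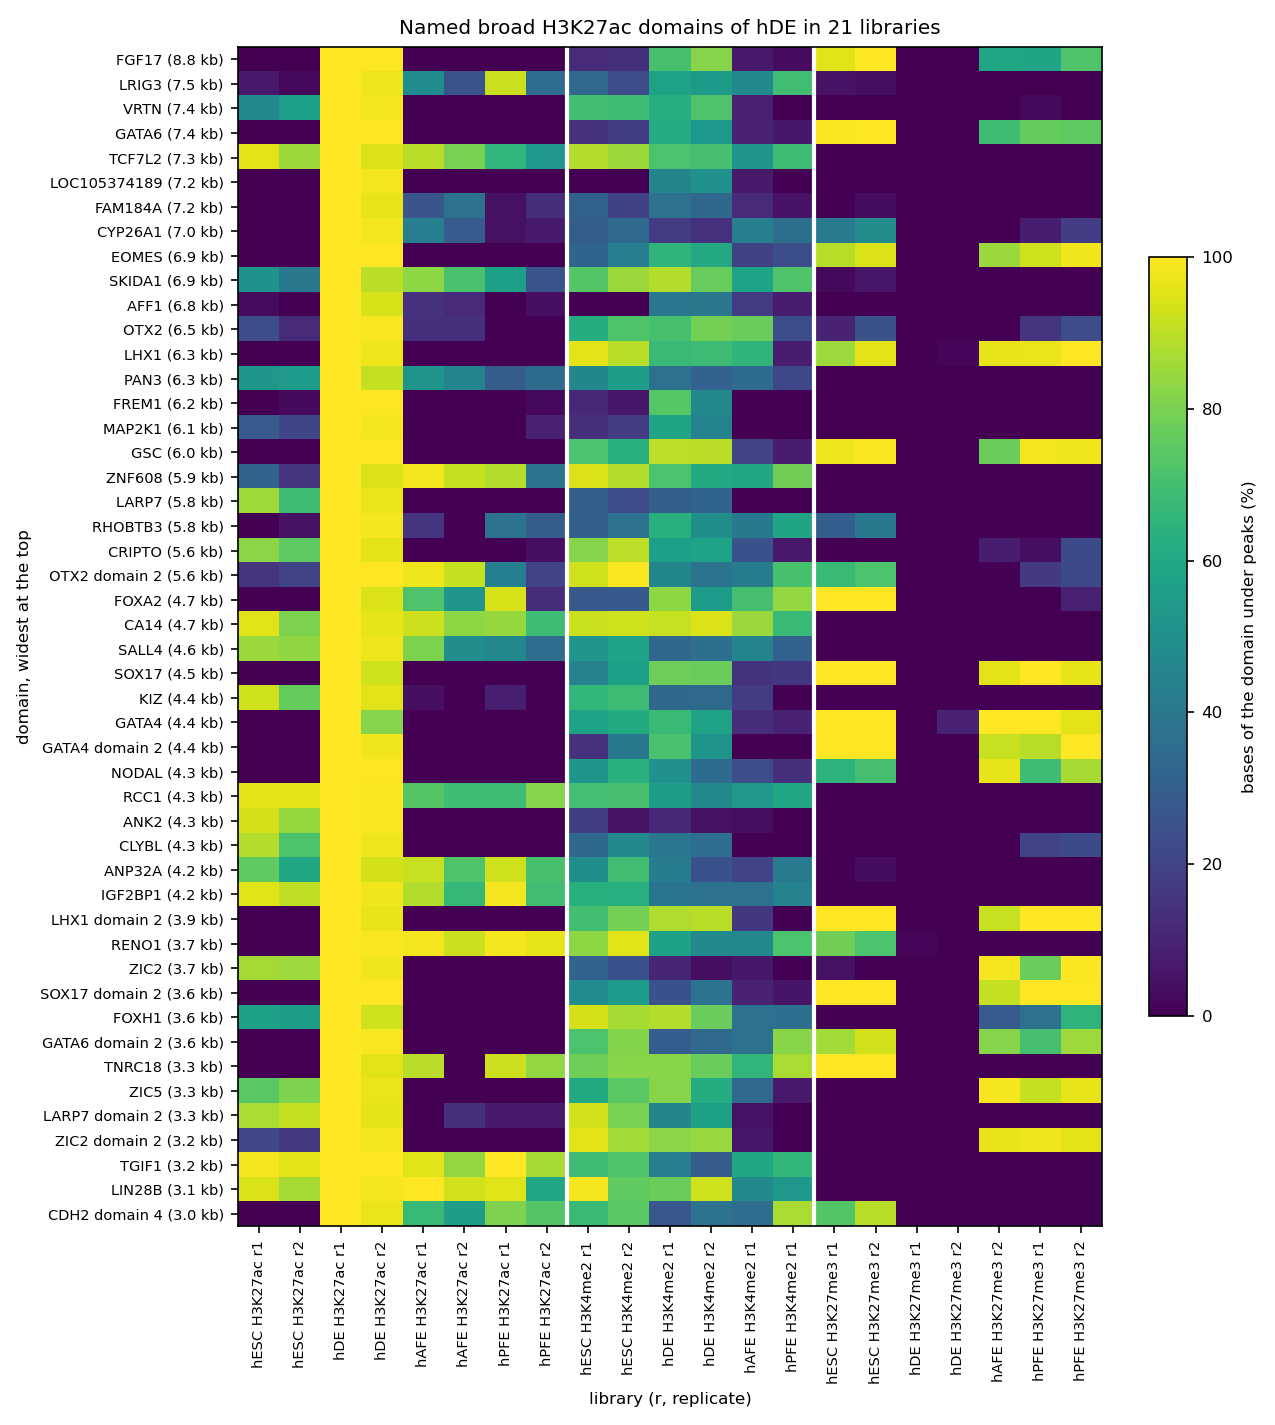
Share of each named domain's bases under peaks (colour, percent) in the 21 libraries, with rows ordered by width and columns grouped by mark. The hDE H3K27ac columns are high by the rule that chose the domains. FGF17, GATA6, EOMES, GSC and SOX17 were under H3K27me3 in hESC, free of it in hDE and under it again in hAFE and hPFE.

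Most domains did not sit on a gene start. A start of any annotated gene lay in 105 (30.6%), against 10.1% of all replicated intervals, and a coding start in 68. A further 160 lay in a gene body without a start and 78 lay outside annotated genes. Wider intervals have more room for a start: a coding start lay within 500 bp of 30.0% of domains and 27.1% of the 55359 replicated intervals under 3 kb, and within 1 kb of 31.8% and 31.0%. The 275 domains without a coding start lay a median of 30.5 kb from the nearest one, and 215 of them within 100 kb.

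Some domains lay near another. Within 50 kb of another domain stood 95 of the 343, in 41 clusters. That share was not computed for other intervals, so it does not show that domains cluster more than those. Only overlapping peaks were merged, so a short gap splits some neighbours. LARP7 domain 2, for example, ended at chr4:112652408 and LARP7 began at chr4:112652498. The largest held 5 domains with a summed width of 19886 bp at ROR2, which encodes a receptor of WNT5A (chr9:91904088-91954860). CER1 and FREM1 shared a cluster of 4 domains with a summed width of 18099 bp (chr9:14718713-14753775), and another 4 lay at SLAMF1 and LOC124904439. LHX1 and AATF shared 3, and the ZIC5 and ZIC2 locus held 3. The genes with most domains within 100 kb of their body were ROR2 and CLYBL with 5 each, followed by CWC27, SHISAL2B and SREK1IP1 with the same 4, a count that CER1 and FREM1 also had.

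Just inside the limit of 3 kb lay domains nearest to DUSP10 (3000 bp), FAR1 (3002 bp) and CALCR (3003 bp), and just outside it intervals nearest to MON2 (2993 bp), SPRY4 (2996 bp) and TNRC18 (2996 bp). The domains with the lowest cover by replicate 2 lay at WDPCP (73.6%) and DDX10 (76.3%). The authors' fold enrichment over input at the domains had a median of 11 in replicate 1, with a range of 3.81 to 21.8, and of 12.7 in replicate 2, with a range of 5.15 to 25.97. Narrower replicated intervals had a median of 4.44 in replicate 1.

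Outside hDE, H3K27ac covered a minority of the domains, in hESC and hAFE at shares near those of all replicated intervals. A domain counts as covered at a stage when peaks lie on 50% or more of its bases in every library of the stage, and as uncovered when they lie on under 10% in every library. By that measure H3K27ac covered 57 domains in hESC (16.6%, against 17.4% of all replicated intervals), 50 in hAFE (14.6% against 12.7%) and 45 in hPFE (13.1% against 22.4%). It left 195, 192 and 178 uncovered, which is 56.9%, 55.98% and 51.9% of domains against 60.9%, 63.3% and 55.8% of all replicated intervals. The hPFE share of covered domains lay below its background. At least 1 bp of a peak lay on 136 to 190 of the 343 domains per library (39.7% to 55.4%, against 22.2% to 39.1% of all replicated intervals), a measure that favours wide intervals. Where hESC, hAFE and hPFE had a peak on a domain, the widest peak had a median of 636 to 842 bp, and peaks of 3 kb or more lay on 5 to 22 domains per library. The mean share of a domain's bases under H3K27ac was 22.3% and 19.4% in hESC, 23.6% and 16.01% in hAFE, and 21.9% and 18.3% in hPFE.

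Set against the replicated intervals under 3 kb, the domains had a mean covered share that was lower in both hESC libraries (differences of -0.760 and -1.27 percentage points) and in both hPFE libraries (-5.23 and -8.10). In hAFE the difference was -2.86 in replicate 1 and 2.98 in replicate 2. Over the 6 libraries the difference was -2.54 ± 3.83 percentage points (SD, n = 6), with a two-sided exact sign-flip permutation p of 0.188 and 0.281 after Benjamini-Hochberg adjustment over 3 marks. The smallest p this design allows is 0.0313. The direction changed with the way the intervals were drawn. With intervals defined by replicate 1 alone, without the cover condition, the difference was 5.58, and with replicate 2 alone 8.29. Both had an adjusted exact permutation p of 0.0469. Dropping the condition admits intervals seen in 1 library only to the narrower class. With both libraries required and a width minimum of 2 kb the difference was 0.82 (adjusted exact permutation p of 0.625). The cause of these changes in sign was not tested. Among intervals with a gene start the difference was -17.1 and among those without -6.67, with adjusted exact permutation p of 0.0703 and 0.0938, both further below 0 than the pooled value.

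**Figure D2:**
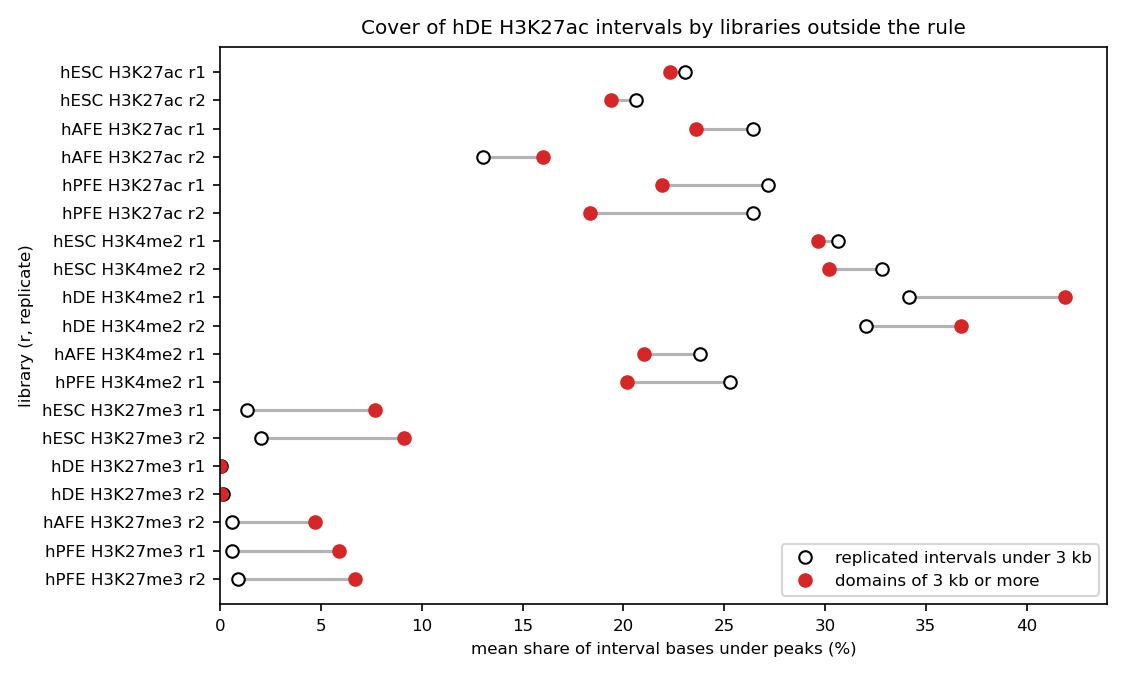
Mean share of interval bases under peaks (percent, horizontal axis) in each library outside the rule, for the 343 domains (filled points) and the 55359 replicated intervals under 3 kb (open points). H3K27me3 in hESC, hAFE and hPFE lay on a larger share of the domains in each of 5 libraries.

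Across the 3 other stages, 123 domains (35.9%) were uncovered by H3K27ac in hESC, hAFE and hPFE and are called hDE-only here. Among all replicated intervals that share was 44.8%. The 5 widest were FGF17, GATA6, LOC105374189, EOMES and LHX1. All 5 had no H3K27ac peak base in any of the 6 libraries outside hDE. Domains without a gene start held most of this class: 104 of 238 were hDE-only (43.7%), against 19 of the 105 with a start (18.1%). The first share is near the 44.8% of all replicated intervals, for which no split by gene start was made. In hDE, H3K4me2 lay on a mean of 33.0% and 28.6% of the bases of hDE-only domains. The mean was 10.1% and 10.97% in hESC, 5.46% in hAFE and 3.24% in hPFE.

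Another 23 domains (6.71%, against 6.2% of all replicated intervals) were covered at every stage, and 19 of them held a gene start. TCF7L2, CA14, RCC1, ANP32A and IGF2BP1 were the widest, and TGIF1 and LIN28B, whose product blocks let-7 maturation, were the list genes. TGIF1 was covered over 98.7% and 95.4% in hESC, 95.2% and 83.9% in hAFE, and 100% and 87.1% in hPFE. The MON2 domain, which holds let-7i, had 89.97% and 63.2% in hESC, 98.9% and 96.9% in hAFE, and 65.6% and 62.2% in hPFE. The LIN28B start and let-7i thus each lay in a domain covered at every stage. LIN28A, the other LIN28 gene in the lists, had no domain within 100 kb of its start. MALAT1, which gives an abundant nuclear noncoding RNA, was in the class too. No domain of this class had H3K27me3 on more than a trace of its bases: the mean was 0.340% in hESC replicate 2 and 0 in each of the other 6 libraries.

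Some domains shared acetylation with hESC but not with the foregut. There were 13 (3.79%, against 2.14% of all replicated intervals) covered by H3K27ac in hESC and uncovered in hPFE. The 5 widest were LARP7, CRIPTO, KIZ, ANK2 and CLYBL, and ZIC2, ZIC5, FOXH1 and the LARP7 domain 2 at the miR-302 host were among the rest. The CRIPTO domain was covered over 82.8% and 75.1% in hESC, over no base in hAFE, and over 0 and 4.25% in hPFE. The LARP7 domain 2 had 87.2% and 91.0% in hESC, 0 and 13.6% in hAFE, and 7.28% and 6.85% in hPFE. FOXH1 had 57.2% and 55.9% in hESC and none at hAFE or hPFE. The CRIPTO, FOXH1 and LARP7 domain 2 regions thus shared with hESC acetylation that both foregut stages had on little or none of the domain. Other genes of the Nodal and pluripotency lists differed: TGIF1 and LIN28B were covered at every stage, and NODAL was hDE-only. SALL4 had H3K27ac on 84.8% and 83.6% in hESC, 80.4% and 49.0% in hAFE, and 46.8% and 35.8% in hPFE.

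The reverse history held 4 domains (1.17%, against 3.39% of all replicated intervals) uncovered in hESC and covered in hPFE, and 2.62% of domains without hPFE H3K27ac replicate 2. They included the noncoding RENO1, TNRC18, and CDH2 domain 4 at the gene for N-cadherin. RENO1 had no H3K27ac in hESC, 98.1% and 91.9% in hAFE, and 98.8% and 96.2% in hPFE. All 4 were under H3K27me3 in hESC, with means of 84.0% and 89.1% of their bases in the 2 libraries. FOXA2, a pioneer factor of the endoderm that the foregut goes on using, had 0 in both hESC libraries, 72.2% and 52.2% in hAFE, but 94.0% and 12.7% in the 2 hPFE libraries, so it counted as mixed there. The other 180 domains (52.5%, against 43.5%) were partly covered at some stage or differed between libraries.

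H3K4me2 was present on nearly all domains in hDE, though seldom across their length. At least 1 bp lay under H3K4me2 in both hDE libraries for 313 domains (91.3%, against 45.3% of all replicated intervals), a count that favours wide intervals. It covered 103 (30.0% against 24.4%) in hDE, 93 (27.1% against 29.1%) in hESC, 52 (15.2% against 24.3%) in hAFE and 70 (20.4% against 27.1%) in hPFE. The mean covered share was 41.9% and 36.7% in hDE, 29.7% and 30.2% in hESC, 21.03% in hAFE and 20.2% in hPFE. The difference from narrower intervals was 7.72 and 4.68 percentage points in hDE and below 0 in each of the other 4 libraries, from -0.997 to -5.07. Over 6 libraries its mean was 0.16 ± 4.95 (SD, n = 6), with an exact permutation p of 0.969. Without the hDE libraries, an alternative chosen after seeing the data, it was -2.86 with an adjusted exact permutation p of 0.188.

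Of the 195 domains uncovered by H3K27ac in hESC, 78 (40%) had at least 1 bp under H3K4me2 in both hESC libraries, against 16% of the 33921 replicated intervals uncovered there. With H3K27me3 the count was 43 (22.1% against 3.06%). Neither mark had a peak base in any hESC library on 74 of them (37.9% against 74.5%). A count from 1 bp favours wide intervals, and the part of width in these differences was not tested. KIT, the gene of the stem cell factor receptor, showed little mark before hDE: its domain had H3K4me2 on 12.6% and 0 of its bases in hESC and H3K27me3 on none. The CXCR4 domain, 59.4 kb from the gene of the chemokine receptor used to sort endoderm, had neither mark in hESC, nor H3K4me2 in hDE. The HHEX domain had both before hDE: H3K4me2 on 76.6% and 99.9% and H3K27me3 on 89.2% and 82.7%. Bulk chromatin does not tell a mark on fewer cells from less of it in each cell, nor 2 marks on the same allele from marks in different cells.

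H3K27me3 lay on some of the domains at each stage except hDE. In hESC both libraries had it on 51 domains (14.9%, against 2.09% of all replicated intervals). In hDE no domain had it in both libraries, against 0.0592% of all replicated intervals. It lay on 29 (8.45% against 1.03%) in hAFE, where there is 1 library, and on 38 (11.1% against 0.81%) in hPFE. Over the whole genome the hDE lists held 28137 and 65874 H3K27me3 peaks over 16.5 and 20.3 Mb, against 15.7 to 31.8 Mb in the other 5. Peaks of 3 kb or more numbered 693 and 541 in hDE, 1087 and 1643 in hESC and 614 to 781 in the foregut libraries, and the part of these differences was not tested. Only 4 domains had any base under H3K27me3 in hDE, each in 1 library: GATA4 (9.79%), LINC02885 (3.57%), LHX1 (1.74%) and RENO1 (1.39%). The antibody may differ between libraries, since the word millipore stands in the names of the hESC, hDE and hPFE lists of replicate 1, and its part was not tested.

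By mean covered share the domains stood above narrower intervals by 6.37 and 7.12 percentage points in hESC, 4.11 in hAFE, and 5.26 and 5.80 in hPFE. In hDE the difference was -0.0387 and -0.0878. Over the 7 libraries it was 4.08 ± 2.98 (SD, n = 7), above 0 in 5 of 7, with a two-sided exact sign-flip permutation p of 0.0625 and 0.188 after adjustment over 3 marks. It missed 0.05, and the smallest p that 7 libraries allow is 0.0156. In hDE, however, the narrower intervals had means of only 0.0428% and 0.132%, so those libraries had little room to differ. The test therefore had less reach than that limit implies. Among intervals with a gene start the difference was 8.31 and among those without 2.19, with adjusted exact permutation p of 0.0703 and 0.0938. Its size depended on how a domain was drawn: it was 0.59 when peaks within 500 bp were joined, 1.62 with a width minimum of 2 kb and 10.003 with 5 kb.

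From 1 to 2 kb upward, the share of intervals under H3K27me3 was higher in each wider class outside hDE. In hESC replicate 1, H3K27me3 lay on 50% or more of the bases of 1.22% of replicated intervals under 500 bp, 1.25% of those of 500 to 1000 bp, 1.36% of those of 1 to 2 kb, 2.38% of those of 2 to 3 kb, 5.29% of those of 3 to 4 kb and 12.1% of those of 4 kb or more. Replicate 2 gave 1.93%, 1.76%, 2.13%, 2.77%, 6.17% and 12.9%. The hPFE libraries went from 0.601% and 0.877% under 500 bp to 8.62% and 9.48% at 4 kb or more, and hAFE from 0.622% to 7.76%. Between these ends the class of 500 to 1000 bp was lower than the narrowest in hAFE (0.434%) and in both hPFE libraries (0.447% and 0.621%), as it was in hESC replicate 2. In hDE no interval of 2 kb or more reached 50% in either library. The widest class holds 116 domains, so these shares rest on 9 to 15 domains each.

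**Figure D3:**
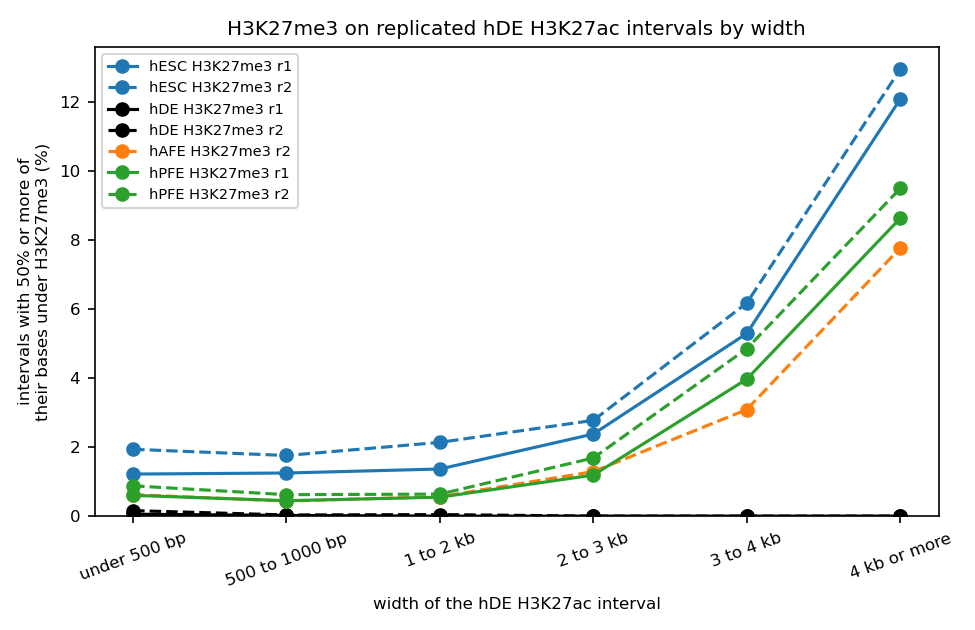
Share of replicated hDE H3K27ac intervals with H3K27me3 on 50% or more of their bases (percent, vertical axis) by width of the interval, 1 line per library (solid for replicate 1, dashed for replicate 2). The hESC, hAFE and hPFE lines are highest in the class of 4 kb or more, between 7.76% and 12.9%, while both hDE lines lie at 0 from 2 kb on.

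The 51 domains with H3K27me3 in both hESC libraries included no domain covered by H3K27ac in hESC. Of the 51, 24 were hDE-only (47.1%), near the 44.8% of all replicated intervals, while 33.9% of the other 292 domains were. H3K27me3 was again in both hPFE libraries on 24 (6.997% of the 343, against 0.443% of all replicated intervals). A gene start lay in 25 of the 51 (49.0%) and in 80 of the other 292 (27.4%). Their median width was 3994 bp against 3537 bp.

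In 26 domains H3K27me3 lay on 50% or more of the bases in both hESC libraries (7.58%, against 1.19% of all replicated intervals). In hDE none was covered, against 0.0251%, and in hAFE and hPFE 16 and 19 domains of the 343 were covered (4.66% against 0.601%, and 5.54% against 0.488%). The 26 were then divided by H3K27me3 in the 3 foregut libraries, 1 of hAFE and 2 of hPFE.

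H3K27me3 was back on 50% or more of the bases in all 3 foregut libraries in 13 of the 26. They were FGF17, GATA6 and its domain 2, EOMES, LHX1 and its domain 2, GSC, SOX17 and its domain 2, GATA4 and its domain 2, NODAL and HHEX. All 13 were hDE-only, and their mean H3K27ac share in hPFE was 0. They were chosen by H3K27me3 at those other stages, and a histone tail cannot carry both marks. Their lack of H3K27ac there is thus partly built into the choice. Narrower intervals with the same H3K27me3 pattern were not examined for it. EOMES had H3K27me3 on 89.3% and 94.5% of its domain in hESC, on none in hDE, on 85.1% in hAFE, and on 92.7% and 97.9% in hPFE. GATA6 (chr18:22172050-22179425) had 98.9% and 100%, then none, then 69.1%, 76.3% and 75.2%. SOX17, a factor required for endoderm, had 100% in both hESC libraries at chr8:54453222-54457744, none in hDE, 95.8% in hAFE, and 99.8% and 96.3% in hPFE. The 13 domains carried H3K27me3 at every stage outside hDE. In hDE, whose H3K27ac chose them, it lay on none of their bases apart from GATA4 (9.79%) and LHX1 (1.74%) in replicate 2. Few replicated intervals of any width had it there (0.0592% in both libraries). The NODAL domain (chr10:70439174-70443498), whose promoter is shown above, had 64.8% and 70.7%, then none, then 96.2%, 68.8% and 86.9%.

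In 7 of the 26, H3K27me3 stayed under 10% in all 3 foregut libraries: FOXA2, ROR2, CER1 domain 2, RENO1, TNRC18, DLC1 domain 2 and CDH2 domain 4. H3K27ac covered 3 of them in hPFE (RENO1, TNRC18 and CDH2 domain 4), and the mean share over the 7 was 51.4%. FOXA2 (chr20:22574306-22579051) had H3K27me3 on 100% of its domain in both hESC libraries, none in hDE or hAFE, and 0 and 9.36% in hPFE. CER1 domain 2 was the exception among the 7 in being hDE-only: H3K27me3 lay on 55.5% and 81.2% in hESC and on none at later stages, and H3K27ac on 9.19% at most outside hDE. The other 6, among them OTX2 domain 2, GSC domain 2, BMP2, GPR37 and AATF, lay between. The OTX2 domain 2 had H3K27me3 on 67.4% and 71.7% in hESC, none in hAFE, and 16.9% and 21.97% in hPFE, while H3K27ac lay on 97.3% and 91.4% in hAFE.

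The share with H3K27me3 back in all 3 foregut libraries was 50% of the 26 domains. Among the 637 narrower intervals with H3K27me3 on 50% or more in both hESC libraries it was 13.97%. Several of the 13 domains share a locus, so they are not independent units, and the difference was not tested.

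**Figure D4:**
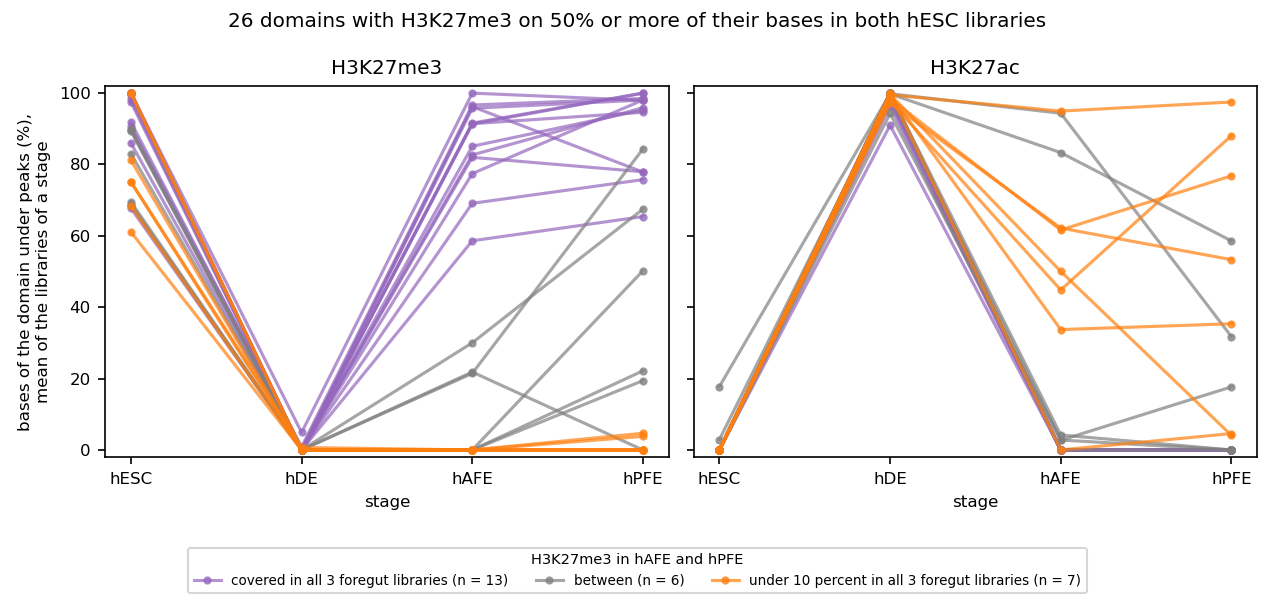
Share of bases under H3K27me3 (left) and H3K27ac (right) at each stage, in percent and averaged over the libraries of the stage, for the 26 domains with H3K27me3 on 50% or more in both hESC libraries, 1 line per domain. Purple lines (n = 13) return to at least 58.4% H3K27me3 in each foregut library and to no H3K27ac in hPFE. Orange lines (n = 7) have H3K27me3 under 10% in each foregut library.

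Foregut H3K27me3 on domains free of it in hESC was confined, at the level of 50% or more in all 3 foregut libraries and under 10% in both hESC libraries, to 3 domains, all at the ZIC2 and ZIC5 locus on chromosome 13. Over all replicated intervals there were 43 such intervals. ZIC2 and ZIC5 encode zinc finger factors of the pluripotent and neural states. ZIC2 (chr13:99981763-99985459) had H3K27ac on 86.7% and 85.4% in hESC and none in hAFE or hPFE, and H3K27me3 on 4.30% and 0 in hESC, 98.5% in hAFE, and 77.0% and 99.5% in hPFE. ZIC5 had H3K27ac on 74.3% and 80.7% in hESC, and H3K27me3 on none in hESC, 98.7% in hAFE, and 91.1% and 96.5% in hPFE. ZIC2 domain 2 had H3K27ac on 21.2% and 16.7% in hESC, and H3K27me3 on 95.9% to 97.8% in the foregut libraries. FOXH1 came near with 29.1% in hAFE, and 37.4% and 65.0% in hPFE, from none in hESC and hDE. The CLYBL domain, 78.8 kb from the CLYBL start on the same chromosome, had 20.7% and 22.4% in hPFE only.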

How the data were processed

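Peak lists of 21 of 25 samples were used, and the 4 input samples entered only as the authors' controls. The deposited file names show that the authors called peaks in each library, with its stage's input as control and duplicates removed, at a p-value of 0.01 and with at most 500 K peaks, which no list reached. Coordinates are hg38 (from the submitters' processing notes). The aligner and peak caller are, however, not given in the sources used here. In the deposited lists a peak has an integer score, a fold enrichment over control (a ratio), a −log10 p and a −log10 q from the authors. Read counts were not used here, so depth is unknown and a missing peak does not show a missing mark. Lists held 23329 to 116047 peaks on chromosomes 1 to 22 and X after overlapping peaks were merged.

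The share of each interval under peaks was computed with Python 3.11.15, pandas 2.3.3 and numpy 2.4.6. The script was tested on 2000 simulated intervals, with 0 wrong values. Gene names come from the RefSeq table (GRCh38.p14, 59098 genes on these chromosomes). Starts are from the RefSeq promoter table for 27195 genes, and for the others either annotated end counted as a start. All 281 list genes in 15 lists matched. Domains were compared with replicated intervals under 3 kb by 1 difference per library and a two-sided exact sign-flip permutation test over libraries. Stages were not compared by a test, since an exact permutation test of 2 libraries against 2 cannot go below p = 0.333. Named genes were those of the 20 widest domains, list genes with a domain at the start, the 5 widest of each history, the 5 with most H3K27me3 at each stage, the 3 nearest each limit, and the 5 genes with most domains within 100 kb. Other named domains (MON2, MALAT1, HHEX, KIT, CXCR4, CER1 domain 2, LINC02885 and those in the counts) were chosen after their values were seen. Some genes and domains that the rule names are not reported here. The domains and lists were chosen with earlier results of these data known.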

Additional observations from a re-analysis of the deposited data

How the results depend on the processing

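Of 350 values recomputed under alternatives, 271 kept their direction and, where tested, their side of the threshold, without a shift in a count or share beyond the limit set for it. Some tested differences among them changed in size, as with the joined peaks. Some of the kept values could not have changed. Every merged interval of 3 kb or more met the cover condition, so a cover of 25%, or no cover condition, gave the same 343 domains. Their counts and shares under those alternatives were fixed in advance and say nothing of robustness. No paired analysis was possible by replicate number because no test was made between same-numbered groups of samples. The tests compare domains with narrower intervals within each library, so they are paired by library.

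With a width minimum of 2 kb there were 1353 domains, of which 19.8% were covered by H3K27ac in hPFE and 20.7% and 25.3% by H3K4me2 in hAFE and hPFE. H3K27me3 then lay on 7.98%, 4.51% and 5.10% in hESC, hAFE and hPFE, 11 definitive endoderm list genes had a start inside, and the H3K27ac difference was 0.82. At 4 kb there were 116 domains, with 8.62% covered by H3K27ac in hPFE, 35.3% and 15.5% by H3K4me2 in hDE and hPFE, H3K27me3 on 21.6% in hESC and 12.1% in hAFE, and an H3K4me2 difference of -0.0318. At 5 kb there were 40, with H3K27ac on 10% in hESC and 5% in hPFE, H3K4me2 on 42.5% in hDE, H3K27me3 on 32.5%, 17.5% and 25% in hESC, hAFE and hPFE, and 25% hDE-only and 2.5% covered at all stages.

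Joining peaks within 500 bp gave 2929 domains, 20 endoderm list genes, H3K27ac on 9.22% in hAFE, H3K4me2 on 17.5% in hDE, H3K27me3 on 7.72%, 4.03% and 3.31% in hESC, hAFE and hPFE, 3.96% covered at all stages, 1.47% covered in hESC and uncovered in hPFE, an H3K4me2 difference of -4.05 and an H3K27me3 difference of 0.59, where it was 4.08 as reported. Peaks with −log10 p of 5 or more gave H3K4me2 on 24.8% in hDE and 15.7% in hPFE, 43.4% hDE-only, an H3K4me2 difference of -3.54 and an H3K27ac difference of -6.41 in place of -2.54. With −log10 q of 2 or more these last were 42.9% and -2.31, and with lists of equal length 45.8% were hDE-only. With a cover of 75% by replicate 2 the H3K27ac difference was -5.30. The H3K4me2 difference was -1.49 with that cover, -0.40 against intervals of 2 to 3 kb, -6.02 among intervals without a gene start and -2.86 without the hDE libraries. With intervals defined by replicate 2, H3K4me2 covered 19.6% in hAFE.

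Counting a domain as covered from 25% of its bases gave, for hESC, hAFE and hPFE, H3K27ac on 26.2%, 23.9% and 23.9%, and H3K4me2 on 42.0%, 35.0% and 30.3%, with 57.4% in hDE, 13.99% covered at all stages and 4.08% uncovered in hESC and covered in hPFE. From 75%, H3K27ac lay on 9.04%, 6.12% and 5.25%, H3K4me2 on 10.2%, 2.04% and 4.08%, with 8.45% in hDE, and 1.46% were covered at all stages. These shifts follow from the limit itself. Without the libraries named millipore, H3K27me3 lay on 20.1% in hESC. Endoderm list genes numbered 11 by gene body, 10 within 1 kb and 11 within 5 kb of the start.

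Leaving out each library in turn gave H3K27ac ranges of 16.6 to 19.5% in hESC, 14.6 to 22.7% in hAFE and 13.1 to 20.1% in hPFE, and H3K4me2 ranges of 28.6 to 40.2% in hDE and 15.2 to 19.6% in hAFE. H3K27me3 in hESC ran from 14.1 to 20.1%. The share uncovered in hESC and covered in hPFE ran from 1.06 to 2.62%, the highest without hPFE H3K27ac replicate 2. With 1 library of a stage fewer, its counts can only stay or grow. The differences ran from -3.64 to 8.29 for H3K27ac, -1.35 to 10.5 for H3K4me2 and 3.24 to 4.77 for H3K27me3, and list genes from 6 to 9. The H3K4me2 difference was -1.35 and -0.74 without hDE H3K4me2 replicate 1 and 2, and 8.36 and 10.5 (adjusted exact permutation p 0.0469) without hDE H3K27ac replicate 2 and 1. The cause of these shifts was not tested.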

Other observations

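Peaks lay on a larger share of the middle of the domains than of their ends. In hDE the mean share under H3K4me2 was 34.6% and 31.8% in the 4 outermost of 20 equal bins per domain and 45.5% and 39.5% in the 4 middle bins. H3K27me3 in hESC gave 6.42% and 7.76% outside and 8.33% and 9.54% in the middle.

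Chromosome 2 held most domains, 33, and chromosome 16 held 3. Broad H3K27ac peaks were more frequent in the hDE lists than in the others: 343 and 377 peaks of 3 kb or more were called in hDE, against 15 to 60 in the 6 lists of hESC, hAFE and hPFE. These lists hold 24790 to 111197 peaks, and the depth behind them is unknown, so the counts describe the lists.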
